A study of Mus musculus with 6 samples.

Results

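The adhesion G protein-coupled receptors were followed across cancer-associated fibroblasts (CAFs) sorted by surface CD34 from mouse mammary tumors. Members were every gene of the count table whose symbol has the form Adgr, a letter and a number, which gave 27 of 27179 genes. Of these, 15 passed the filter on low counts and were tested, and 12 were too low to test. Without a term for the tumor, no member passed an adjusted p of 0.05. With the tumor as a block, Adgrl3 and Adgrf5 were higher in CD34 negative CAFs and Adgrg2 and Adgrd1 were lower, that is 4 of 15, while 8.57% of all genes tested passed. None of them passed with the tumor as a random effect, which estimates the correlation within tumors (limma-voom adjusted p = 0.0642, 0.0983, 0.0564 and 0.121).

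Adhesion receptors join a long extracellular region to the seven-helix membrane core shared by all G protein-coupled receptors. Most carry a GAIN domain that cuts itself at the GPCR proteolysis site, and the exposed stretch behind the cut acts as a tethered agonist. Through their extracellular parts they bind matrix proteins and proteins of neighbouring cells, and through their cores they couple to heterotrimeric G proteins. Fibroblasts both make the collagens and laminins that some members bind and carry members of the family themselves.

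The study compared CD34 negative with CD34 positive CAFs, each sorted from the same 3 tumors, which gave 6 libraries of RNA sequencing and 3 per group. All tumors came from raGFP-Wnt1 female mice, that is, from a cross of MMTV-Wnt1 transgenic mice, in which the mammary tumor virus promoter drives Wnt1, to mice heterozygous for a histone-tagged GFP knocked into Pdgfra. Both groups therefore carried the Wnt1 transgene and the Pdgfra reporter allele, and differed by the CD34 gate. The transgenic strain was FVB/NJ and the reporter strain C57BL/6, so the tumors were of mixed background. GFP marks cells with an active Pdgfra locus, so CAFs without Pdgfra were outside the sort, and the age of the tumor-bearing mice was not given in the sources used here. The labels call the fractions negative and positive, whereas the series title calls them low and high.

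Libraries held between 16238059 and 86609267 counts and detected between 14314 and 19220 genes, the fewest in the CD34 negative library of tumor 3. Cd34 was 74.3 ± 30.2 CPM (counts scaled to library size, SD, n = 3) in the negative libraries and 948 ± 571 CPM in the positive ones, and every negative library lay below every positive library. Fibroblast markers summed to between 40413 and 58903 CPM in CD34 negative and between 40262 and 42932 CPM in CD34 positive libraries, with no marker of the list at 0. Col1a1 and Col1a2 made up most of each sum. Both, and Pdgfrb, were higher in the negative library of each tumor, while Dcn, Lum and Pdgfra were lower there. With the tumor block, 1 of 7 markers passed higher and 2 lower in CD34 negative CAFs, beside 4.32% and 4.25% of all genes. Bulk values do not separate fewer cells of a type from less RNA per cell.

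The promoters of Adgrg2 and Adgrf5 are shown because these genes differed between the fractions in opposite directions and had a window free of GENCODE M21 exons. RefSeq promoter windows on GRCm38.p6 covered 20 of the 27 members, 11 of them among the 15 tested, and none was given for Adgrd1, Adgra2 or Adgre5. Each sequence is the 250 bases before a transcription start, read 5′ to 3′ on the plus strand, and capitals mark a GC box, the letters GGGCGG on either strand. No GENCODE M21 exon overlaps these windows, and RefSeq exons were not checked. The Adgrg2 window and the second Adgrf5 window lie inside the RefSeq gene record, which begins further upstream, and the first Adgrf5 window overlaps the start of its record.
Adgrg2, chrX:160390440-160390689: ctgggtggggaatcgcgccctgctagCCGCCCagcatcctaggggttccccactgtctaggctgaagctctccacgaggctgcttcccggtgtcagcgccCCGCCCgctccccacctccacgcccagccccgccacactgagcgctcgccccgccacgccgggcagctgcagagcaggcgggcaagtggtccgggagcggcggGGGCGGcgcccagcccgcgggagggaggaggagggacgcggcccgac
Adgrf5 first start, chr17:43360181-43360430: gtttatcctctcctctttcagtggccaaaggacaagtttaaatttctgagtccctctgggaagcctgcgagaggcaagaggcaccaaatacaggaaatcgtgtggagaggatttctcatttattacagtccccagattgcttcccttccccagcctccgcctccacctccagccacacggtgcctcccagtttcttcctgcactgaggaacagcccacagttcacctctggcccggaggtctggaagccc
Adgrf5 second start, chr17:43389216-43389465: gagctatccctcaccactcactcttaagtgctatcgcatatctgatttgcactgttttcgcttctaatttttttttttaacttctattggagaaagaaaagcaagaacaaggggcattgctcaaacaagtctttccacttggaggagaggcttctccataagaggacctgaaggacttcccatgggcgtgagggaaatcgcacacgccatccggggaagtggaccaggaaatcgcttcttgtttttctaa
The Adgrg2 window held 3 GC boxes and 26 CpG dinucleotides at 75.6% G and C. Neither Adgrf5 window held a GC box, with 5 and 7 CpG at 54.4% and 44.8% G and C. Over all 32851 windows, 32.7% held a GC box, the median was 6 CpG (quartiles 2 and 16) and the median G and C content was 52.4%. The Adgrg2 window thus lay above the upper quartile of CpG, and both Adgrf5 windows lay between the quartiles.

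Per length, Adgrd1 and Adgra2 made up most of the family's RNA. Levels between genes are compared as RPKM, the CPM per kilobase of the authors' gene length. Adgrd1 (GPR133), a receptor known to bind the pseudokinase Ptk7, held 38.2 ± 13.4 RPKM in CD34 negative and 67.3 ± 26.1 RPKM in CD34 positive libraries. Adgra2 (GPR124), which works with Reck in Wnt7 signalling, held 43.6 ± 3.98 and 45.1 ± 8.54 RPKM. Together they took between 54.1% and 75.0% of the summed RPKM of the 27 members. Adgrd1 ranked first in every library except the CD34 negative library of tumor 1, where Adgra2 did. The intervals of 1 SD of both receptors overlapped within each fraction, but these intervals ignore that both were measured in the same libraries. Adgrd1 exceeded Adgra2 in the CD34 positive library of each tumor (38.9, 73.0 and 90.1 against 35.5, 52.0 and 47.7 RPKM). In the CD34 negative libraries the order differed between tumors.

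**Figure D1:**
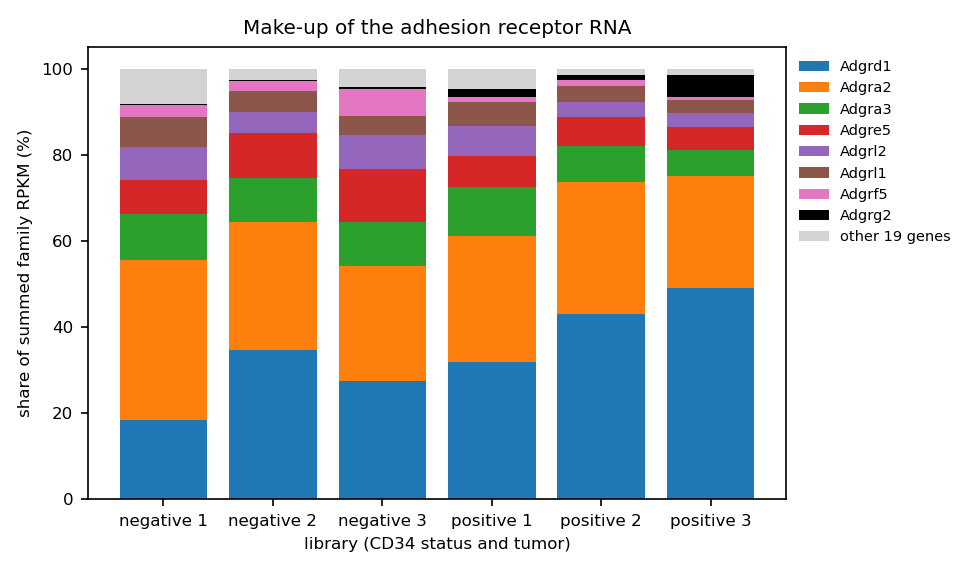
Share of the family's summed RPKM (percent, vertical axis) taken by each receptor in each library (horizontal axis, CD34 status and tumor), with the remaining genes in grey. Adgrd1 and Adgra2 together take between 54.1% and 75.0% in every library, and the Adgrd1 share runs from 18.3% to 49.0%.

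Adgra3 (14.5 ± 0.971 and 13.1 ± 1.50 RPKM in CD34 negative and positive libraries) and Adgre5 (CD97; 14.7 ± 4.25 and 9.92 ± 1.43 RPKM) followed. The latrophilins Adgrl2 (9.50 ± 2.55 and 6.77 ± 1.66 RPKM) and Adgrl1 (7.53 ± 1.23 and 6.26 ± 0.517 RPKM) came next. The 4 most abundant receptors took between 74.2% and 88.7% of the family's RPKM. Within the pairs Adgra3 and Adgre5, and Adgrl2 and Adgrl1, the SD intervals overlapped in both fractions apart from Adgra3 and Adgre5 in CD34 positive libraries. Every other member had a mean of at most 5.54 RPKM in both fractions.

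**Figure D2:**
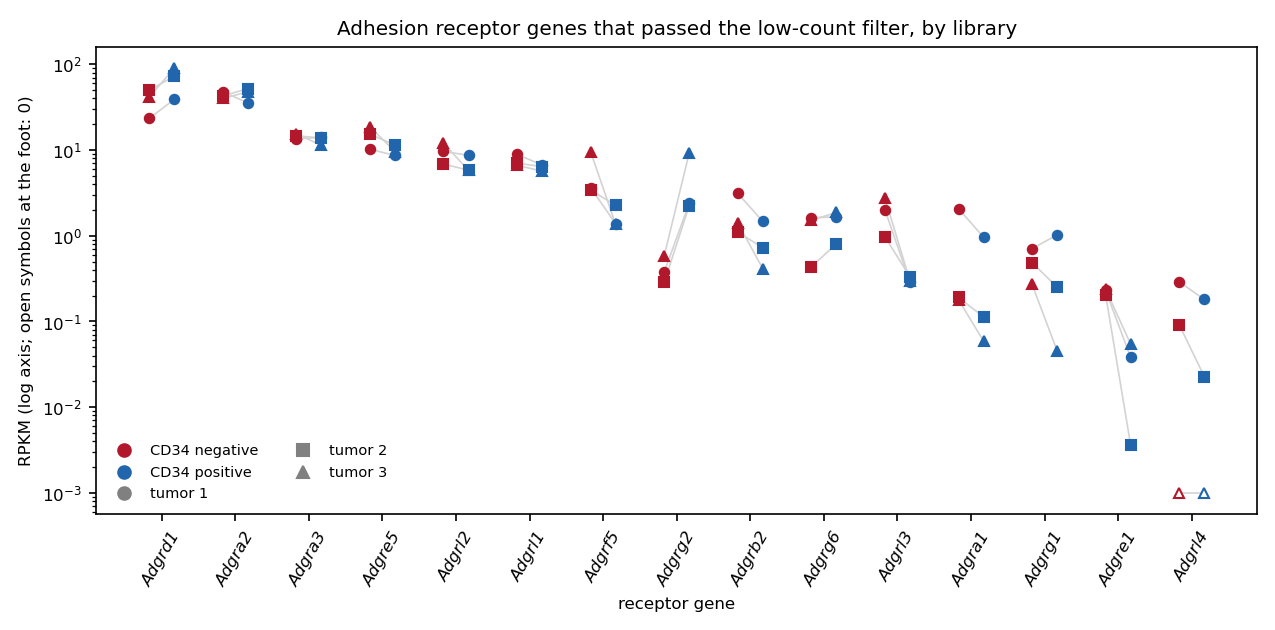
RPKM (vertical log axis) of the 15 receptors that passed the low-count filter, with CD34 negative and CD34 positive libraries in different colours and a marker shape for each tumor. Open symbols at the foot stand for 0. Adgrd1 and Adgra2 lie highest, and the groups of Adgrf5, Adgrl3, Adgre1 and Adgrg2 do not overlap.

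Of the 15 receptors tested, 11 had a log2 fold change above 0, which means higher in CD34 negative CAFs, and 4 below 0. Their median was 0.53, against -0.03 over all 14855 genes tested. It was 0.99 without the CD34 positive library of tumor 1, 0.35 without the negative library of tumor 3 and 0.26 without tumor 3. In the limma-voom fit without a tumor term, 0 members passed an adjusted p of 0.05, beside 0.121% of all genes (0.0202% higher and 0.101% lower), and 5 had an unadjusted p under 0.05, beside 14.3% of all genes. The edgeR quasi-likelihood test called 0 members (0.0606% of all genes) with 4 at an unadjusted p under 0.05 (1855 of all 14855 genes). DESeq2 called 3 (4.70% of all genes). With the tumor as a block, limma-voom called 4 of 15, 2 higher and 2 lower, beside 8.57% of all genes (4.32% higher and 4.25% lower). The fractions of a pair come from 1 tumor, which is why the blocked values are given beside the others. With edgeR and the block 3 passed, beside 3.87% of all genes, and with DESeq2 and the block 5, beside 11.7%. With the tumor as a random effect, 0 members passed, beside 4.73% of all genes, and 8 had an unadjusted p under 0.05, beside 22.6% of all genes. Adgre1 is among the 11 above 0 and among those with an unadjusted p under 0.05 in each of these 3 fits. It entered the test only through its CD34 negative libraries, so these counts follow in part from the filter.

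The sign was the same in all 3 tumors for 8 receptors that were higher in CD34 negative libraries (22.8% of all genes) and for 3 that were lower (23.4% of all genes), against 46.3% of all genes in either direction. The groups did not overlap for Adgrf5 and Adgrl3, higher in CD34 negative libraries (10.4% of all genes), and for Adgrg2, lower there (10.0% of all genes), against 20.4% in either direction. Adgre1 had no overlap either and is among the 8 with the same sign, but it entered the test only through its CD34 negative libraries, so its separation follows in part from the filter.

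**Figure D3:**
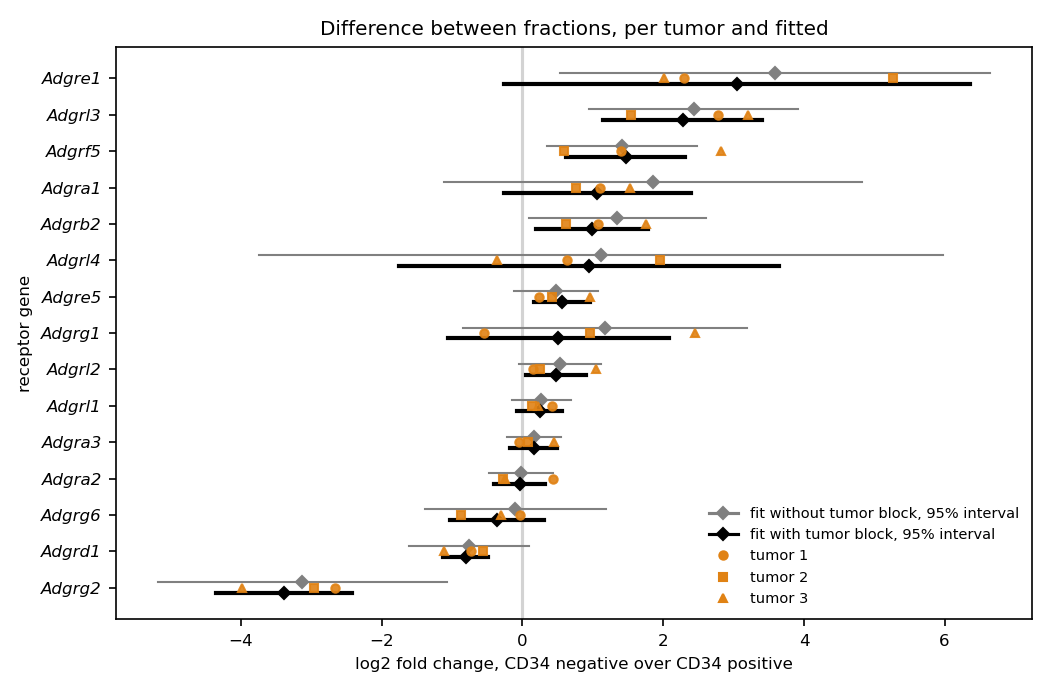
Log2 fold change, CD34 negative over CD34 positive (horizontal axis), of each receptor tested, with the fit without the tumor block in grey and with it in black (diamonds with 95% intervals) and the difference within each tumor as separate symbols. Adgrl3 and Adgrf5 lie to the right and Adgrg2 and Adgrd1 to the left of 0 in each tumor.

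Adgrg2 (GPR64), best known for fluid balance in the epididymal ducts, lies on chrX:160390318-160498076. It had 1.78, 1.35 and 2.75 CPM in the CD34 negative libraries of tumors 1, 2 and 3 and 11.3, 10.6 and 43.6 CPM in the CD34 positive libraries. Every CD34 positive library exceeded every negative library, and the positive library of tumor 3 stood above the other two. The log2 fold change was -3.13 ± 0.90 (SE; limma-voom adjusted p = 0.177), and -3.39 ± 0.43 with the tumor block (adjusted p = 0.00233). Within tumors the difference was -2.66, -2.96 and -3.98. Without tumor 3, the blocked fit gave -2.82 and still passed. Over all alternatives the log2 fold change ran from -3.81 to -2.55, and the adjusted p from 2.57e-15 to 0.402.

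Adgrd1 lies on chr5:129096750-129204599. Its CPM in tumors 1, 2 and 3 was 120.8, 256.1 and 214.5 in CD34 negative libraries and 201.0, 376.9 and 465.2 in CD34 positive libraries. The groups overlapped, because tumor 1 was low in both fractions, but the positive library was the higher of each pair. The log2 fold change was -0.76 ± 0.37 (limma-voom adjusted p = 0.396), and -0.80 ± 0.14 with the tumor block (adjusted p = 0.00971). Within tumors it was -0.73, -0.56 and -1.12. The blocked call held without each tumor in turn, at -0.83, -0.94 and -0.66, while the adjusted p ran from 4.22e-05 to 0.726 over all alternatives. Without the tumor block, leaving out the CD34 negative library of tumor 1 gave -0.47 and leaving out the positive library of tumor 1 gave -1.16.

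Adgrl3, a latrophilin that binds Flrt proteins and teneurins on adjoining cells, lies on chr5:81019085-81827825. The CD34 negative libraries held 11.7, 5.65 and 16.1 CPM and the CD34 positive libraries 1.67, 1.93 and 1.73 CPM, in the order of tumors 1, 2 and 3. The positive libraries were close to each other and all lay below the lowest negative library. The log2 fold change was 2.43 ± 0.65 (limma-voom adjusted p = 0.152), and 2.28 ± 0.50 with the tumor block (adjusted p = 0.0235). Within tumors it was 2.78, 1.55 and 3.20. Without tumor 1 the blocked call was lost, at 2.16 with an adjusted p of 0.0756, and it held without tumor 2 (3.05) and without tumor 3 (1.92). The adjusted p ran from 8.32e-06 to 0.507 over all alternatives.

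Adgrf5 (GPR116), which controls surfactant pools in the lung and is also made by endothelial cells, lies on chr17:43360329-43459557. It had 31.1, 29.2 and 81.6 CPM in the CD34 negative libraries and 11.8, 19.3 and 11.6 CPM in the CD34 positive libraries. The negative library of tumor 3 was the highest, and the remaining negative libraries also lay above every positive library. The log2 fold change was 1.41 ± 0.46 (limma-voom adjusted p = 0.230), and 1.47 ± 0.37 with the tumor block (adjusted p = 0.0424). Within tumors it was 1.40, 0.59 and 2.82. The blocked value was 2.37 without tumor 2 and 0.83 without tumor 3, past the threshold in both (adjusted p = 1.91e-07 and 0.0246). With edgeR and the block the adjusted p was 0.0914, so this call was lost, and over all alternatives it ran from 1.91e-07 to 0.507.

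Of the receptors that passed in neither limma-voom fit, Adgra2 was nearest to 0. It had 264.3, 236.0 and 221.1 CPM in CD34 negative and 196.0, 286.8 and 263.3 CPM in CD34 positive libraries. Its log2 fold change was -0.02 with a 95% interval from -0.47 to 0.43, so a difference of up to about that size in either direction is within the error. Adgra3, another group III receptor, had 60.6, 65.5 and 69.2 CPM against 62.8, 62.1 and 50.8 CPM (limma-voom adjusted p = 0.704, and 0.598 with the block). The third receptor of that group, Adgra1, was high in tumor 1 in both fractions, at 9.86 and 4.58 CPM, and lay between 0.28 and 0.91 CPM in the other libraries.

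Adgre5, which binds Cd55, had 33.2, 49.8 and 60.7 CPM in CD34 negative and 28.2, 37.3 and 31.3 CPM in CD34 positive libraries. It was higher in the negative library of each tumor, and did not pass (log2 fold change 0.47 ± 0.26, limma-voom adjusted p = 0.450, and 0.0913 with the block). Its gene overlaps Ddx39a, which had 5629 counts against 10852 of Adgre5, and the library kit does not mark strand. Adgrl2 (58.4, 41.7 and 72.5 against 52.6, 35.2 and 35.2 CPM) and Adgrl1 (73.1, 57.6 and 54.3 against 54.7, 52.5 and 46.5 CPM) were likewise higher in the negative library of each tumor without passing, with adjusted p of 0.171 and 0.359 in the blocked limma-voom fit. Adgrl3 was thus the latrophilin with a call, and whether its difference exceeds that of the other latrophilins was not tested.

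Adgrb2, a brain angiogenesis inhibitor family member, had 16.5, 5.85 and 7.45 CPM against 7.80, 3.83 and 2.19 CPM. It was higher in the negative library of each tumor and passed only in DESeq2 with the tumor block (0.0451), beside 0.130 in the blocked limma-voom fit. Adgrg6 (GPR126), a receptor needed for Schwann cell myelination, had 10.5, 2.83 and 9.88 CPM against 10.8, 5.22 and 12.2 CPM, with a log2 fold change of -0.10 that turned positive without some libraries. The pseudogene Gm10335 within it had 44031 counts against 2045 of Adgrg6. Adgrg1 (GPR56), a receptor for collagen III, had 2.72, 1.88 and 1.05 CPM against 3.96, 0.97 and 0.18 CPM, and its groups overlapped.

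Adgre1 and Adgrl4 are known from other cells. Adgre1, the F4/80 antigen of mouse macrophages, had 42, 30 and 28 counts in CD34 negative libraries and 2, 1 and 5 counts in CD34 positive libraries. Its groups did not overlap (0.66 to 0.77 against 0.01 to 0.18 CPM), but it passed the filter only through the CD34 negative libraries, and its adjusted p was 0.287 in limma-voom and 0.259 with the block. Adgrl4 (ELTD1), an endothelial receptor, had 1.19, 0.38 and 0 CPM against 0.74, 0.09 and 0 CPM, with no count in either library of tumor 3.

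Macrophage markers summed to between 11.5 and 17.3 CPM in CD34 negative and between 7.30 and 17.3 CPM in CD34 positive libraries. In either limma-voom fit 0 of 8 tested markers passed, beside 0.121% of all genes without the block and 8.57% with it. In the CD34 negative library of tumor 3, 5 of 9 were at 0 (Cd68, C1qc, Ptprc, Mrc1 and Fcgr1) beside 28 counts of Adgre1. Lyz2 was highest in that library, and its values of 6.73, 6.02 and 8.83 CPM in the negative libraries lay above those of 1.80, 4.48 and 2.58 CPM in the positive ones, the direction of Adgre1. Csf1r (2.67, 6.58 and 2.12 against 1.42, 8.05 and 3.10 CPM) was lower in the negative library of tumors 2 and 3. So was Mrc1, at 1.14, 1.00 and 0 against 0.87, 1.47 and 0.81 CPM. The CD34 negative library of tumor 3 also detected the fewest genes. The part of macrophage RNA in the Adgre1 values was not tested.

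Endothelial markers summed to between 16.3 and 36.4 CPM in CD34 negative and between 57.8 and 124 CPM in CD34 positive libraries. Tek made up most of that sum in the positive libraries, at between 48.8 and 116 CPM. With the block 1 of 8 markers passed, lower in CD34 negative CAFs, beside 4.25% of all genes. Without Tek, set apart after its values were seen, the sums were 23.0, 11.3 and 10.9 CPM in the negative and 31.0, 9.02 and 8.40 CPM in the positive libraries of tumors 1, 2 and 3, so the fractions overlapped. The defining markers Pecam1 (5.95, 2.97 and 0.55 against 12.9, 1.92 and 1.73 CPM) and Cdh5 (4.18, 1.51 and 0.22 against 1.61, 0.64 and 0 CPM) were lower in tumor 3 than in tumor 1 in both fractions, and Cdh5 was higher in the negative library of each tumor. So was Esam, at 2.74, 1.93 and 5.89 against 1.42, 0.61 and 0.11 CPM, the direction of Adgrf5. Kdr was lower in the negative library of each tumor (4.49, 1.84 and 4.21 against 12.6, 3.84 and 5.12 CPM), as was Tek. Egfl7 was lower there in tumors 2 and 3, and Tie1 and Emcn were higher there in tumors 1 and 2. In the negative library of tumor 3, Adgrf5 was highest at 81.6 CPM, and Esam was also at its highest. Tie1 and Emcn were at 0 in that library, Pecam1 was at 0.55 CPM and Egfl7 at 0.03 CPM. The part of endothelial RNA in the Adgrf5 and Adgrl4 values was not tested.

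Pericyte markers summed to between 211 and 236 CPM in CD34 negative and between 86.8 and 188 CPM in CD34 positive libraries. With the block, 3 of 6 passed higher and 2 lower in CD34 negative CAFs, beside 4.32% and 4.25% of all genes. Rgs5, Cspg4, Mcam and Notch3 were higher in the negative library of each tumor, and Kcnj8 and Abcc9 were lower there. Rgs5 was at 10.7 CPM in the negative library of tumor 3, its highest value. The part of pericytes in the receptor values was not tested. Epithelial markers summed to 168, 147 and 58.9 CPM in CD34 negative and 144, 100 and 20.6 CPM in CD34 positive libraries. In either limma-voom fit 0 of 7 passed, beside 0.121% of all genes without the block and 8.57% with it. The part of epithelial RNA in the receptor values was not tested.

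**Figure D4:**
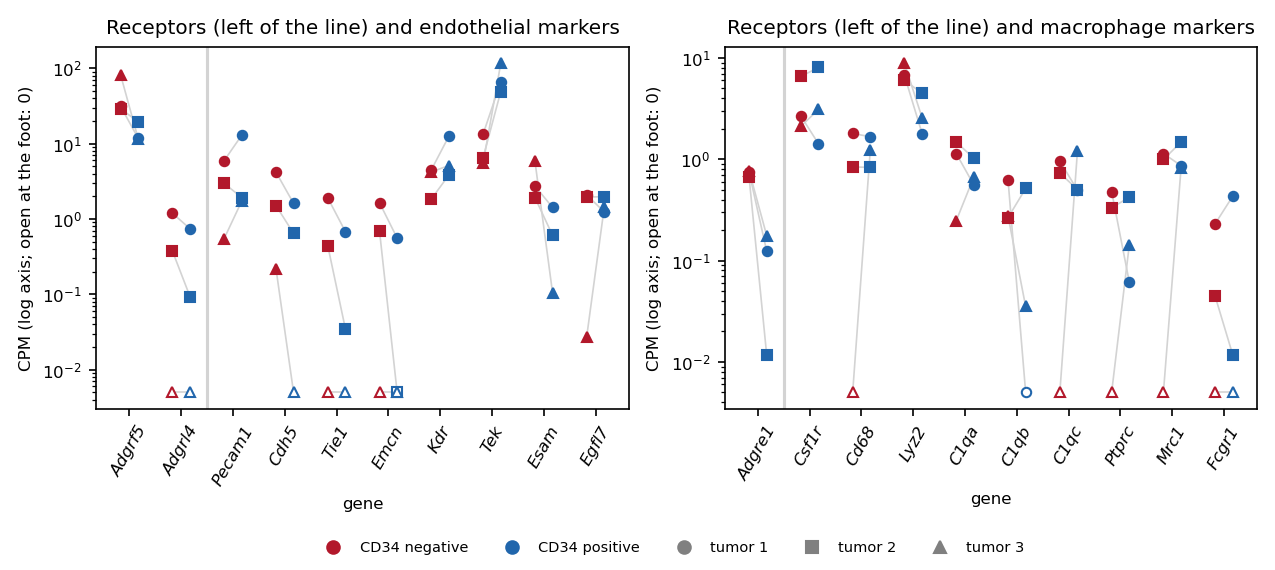
CPM (vertical log axis) of receptors, left of the line in each panel, and of endothelial or macrophage markers, right of it, by library, with open symbols at the foot for 0. Adgrf5 is highest in the CD34 negative library of tumor 3, where Tie1 and Emcn are at 0 and Pecam1 is at 0.55 CPM. Esam is highest there at 5.89 CPM, while Kdr and Tek lie lower in the negative library of each tumor. Lyz2, like Adgre1, lies higher in each negative library, while Csf1r and Mrc1 lie lower in those of tumors 2 and 3.

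The 12 untested members held few reads. Adgrf3 and Adgrg4 had no count in any library, and the other 10 had between 5 and 69 counts over all 6 libraries. They included the brain receptors Adgrb1 and Adgrb3, Adgrv1, known from hair cells of the inner ear, and 4 of the 5 Adgrf genes. A count of 0 allowed up to between 0.0351 and 0.186 CPM per library, by 3 counts of the library, for counting error only. Between 15 and 24 members had a count in a library, the fewest in the negative library of tumor 3. Chromosome 17 held 6 members, 2 of them tested, and chromosome 8 held 6, 4 of them tested.

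Known ligands and partners of the receptors were then read from the same fit. Of 29 listed genes, 21 were tested and 1 had no count. Without the block 0 passed in limma-voom (0.121% of all genes), with 7 at an unadjusted p under 0.05 (14.3% of all genes). The edgeR test called 0 (0.0606% of all genes), with 5 at an unadjusted p under 0.05 (1855 of all 14855 genes). DESeq2 called 3 (4.70% of all genes). With the block 4 were higher and 2 lower in CD34 negative CAFs, beside 4.32% and 4.25% of all genes. This fell to 3 in all with edgeR and the block (3.87% of all genes) and to 3 with the tumor as a random effect (4.73% of all genes). The median log2 fold change was 4e-04 without the block, with 11 genes above 0 and 10 below.

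Cd55, the complement inhibitor that Adgre5 binds, had 19.1, 17.2 and 20.1 CPM in CD34 negative and 128.0, 86.5 and 324.8 CPM in CD34 positive libraries. All positive libraries lay above all negative ones, as for 5 of the 21 tested partners and 10.0% of all genes. Its log2 fold change was -3.08 ± 0.47 (limma-voom adjusted p = 0.0578), and -3.10 ± 0.28 with the block (adjusted p = 0.000522). Adgre5 itself had values in the other direction that did not pass.

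Ptk7, the partner of Adgrd1, had 239.8, 336.8 and 301.0 CPM in CD34 negative and 92.1, 166.5 and 68.5 CPM in CD34 positive libraries. All negative libraries lay above all positive ones, as for 2 of the 21 tested partners and 10.4% of all genes. Its log2 fold change was 1.52 ± 0.32 (limma-voom adjusted p = 0.0967), and 1.50 ± 0.20 with the block (adjusted p = 0.0029). With the block, Ptk7 was thus higher in the fraction in which Adgrd1 was lower.

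Of the latrophilin ligands, Flrt2 was lower in CD34 negative CAFs, at 92.6, 65.5 and 110.4 CPM against 131.7, 156.7 and 252.2 CPM (log2 fold change -0.996 ± 0.16 with the block, limma-voom adjusted p = 0.0071, and 0.179 without it). The teneurin Tenm3 was higher, at 121.2, 47.9 and 81.7 against 75.5, 32.0 and 20.8 CPM (0.99 ± 0.24 with the block, limma-voom adjusted p = 0.0351, and 0.292 without it). Of the matrix ligands of Adgrg6, the basement membrane chains Col4a2 (0.81 ± 0.14, adjusted p = 0.00861) and Lama2 (0.58 ± 0.13, adjusted p = 0.0272) passed with the block in limma-voom, both higher in CD34 negative CAFs. Ligands of the same receptor family thus lay on both sides. Wnt7a had 2 counts in all, and Reck, the partner of Adgra2, did not pass (log2 fold change -0.31, limma-voom adjusted p = 0.302 with the block).

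**Figure D5:**
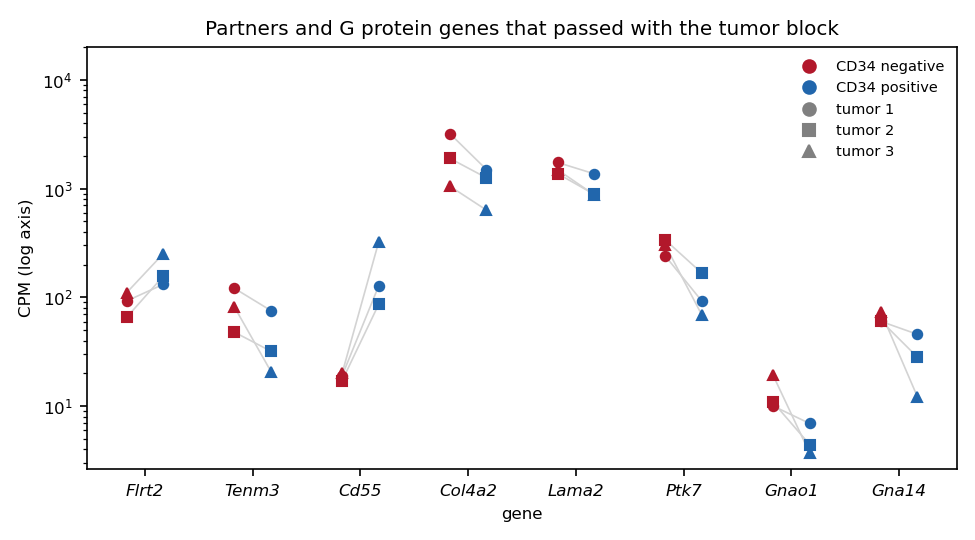
CPM (vertical log axis) by library of the partner and G protein genes that passed with the tumor block, CD34 negative and CD34 positive in different colours and a marker shape for each tumor, and grey lines joining the fractions of a tumor. Cd55 and Flrt2 lie higher in each CD34 positive library, and Ptk7, Gnao1 and Gna14 in each CD34 negative library.

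Of 18 listed genes that act downstream of G protein-coupled receptors, such as G protein alpha subunits and arrestins, 17 were tested. Without the block 0 passed in limma-voom (0.121% of all genes). There 4 had an unadjusted p under 0.05, each higher in CD34 negative CAFs, beside 14.3% of all genes in either direction. The edgeR test also called 0 (0.0606% of all genes), with 4 at an unadjusted p under 0.05 (1855 of all 14855 genes). DESeq2 called 1 (4.70% of all genes). With the block 2 of 17 passed in limma-voom, near the 8.57% of all genes in either direction. Both were higher in CD34 negative CAFs, as were 4.32% of all genes. With edgeR and the block 0 passed (3.87% of all genes), with 5 at an unadjusted p under 0.05 (2903 of all 14855 genes). With the tumor as a random effect 1 passed (4.73% of all genes). Gna14, an alpha subunit of the Gq class, had 60.2, 61.0 and 73.8 CPM in CD34 negative and 45.7, 28.2 and 12.2 CPM in CD34 positive libraries (log2 fold change 1.29 ± 0.31, adjusted p = 0.0321). Gnao1, an alpha subunit of the Gi class, had 10.0, 10.9 and 19.3 against 6.93, 4.44 and 3.70 CPM (1.46 ± 0.36, adjusted p = 0.0359). Both were among 5 of the 17 tested genes with every CD34 negative library above every CD34 positive one, beside 10.4% of all genes. Gnas, the alpha subunit of the Gs class, was at 1042, 852.1 and 799.4 against 1130, 883.4 and 939.5 CPM, and its log2 fold change of -0.15 did not pass.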

How the data were processed

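RNA was sequenced from FACS-sorted CD34 negative and CD34 positive GFP+ CAFs of 3 tumors by Illumina sequencing, with TruSeq RNA v2 libraries from total RNA (the labels name poly(A) RNA). The authors aligned reads to GRCm38 and counted them with Rsubread, and the labels name featureCounts. The deposited values are raw counts per NCBI gene with gene lengths, and the strand and multi-mapping settings were not given in the sources used here. Groups and tumor numbers came from the sample titles. Without the block, p-values measure the spread between 3 tumors within each group. With the block, they measure how far the differences within tumors vary between the 3 tumors.

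Genes were kept with filterByExpr (minimum count 10), scaled by TMM and compared with voom and limma 3.58.1 (edgeR 4.0.16, R 4.3.3) over 14855 genes, with two-sided p-values adjusted by Benjamini and Hochberg and called under 0.05. The steps follow the study's methods, except that 1310 genes without a symbol were not removed before the filter. Those methods name no tumor term and do not say that none was used. The paper's list of genes higher in CD34 negative CAFs was longer than the 3 that passed without the block, and 642 passed with it. The fit without the block may therefore not be the authors' fit. CPM used the kept counts and the TMM factor, and RPKM divided it by gene length. Each difference within a tumor is the difference of its log2 CPM values.

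Both fractions of a number come from 1 tumor, so the number pairs them, and across genes the deviations of paired libraries from their group means correlated at 0.485, 0.504 and 0.234. The blocked fit is therefore given beside results whose call it changes. Alternatives were edgeR quasi-likelihood and DESeq2 1.42.0 (each with and without the block), a random effect, quality weights, other size factors, no filter, genes with a symbol, and leaving out each library or tumor. The limma-voom, edgeR and DESeq2 fits, with and without the block, were also tried on simulated data.

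Receptors past the filter were named, with full statistics for those past 0.05 with or without the block. Listed partners and G protein genes were named by the same threshold, apart from Reck, Wnt7a and Gnas, which did not pass it. The Celsr genes were named whatever their result. The members and lists were chosen with earlier results of these data known. Positions and promoters are from RefSeq GRCm38.p6, exons from GENCODE M21, and protein sequences were not used here.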

Additional observations from a re-analysis of the deposited data

How the results depend on the processing

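Over all genes, 18 passed without the block, 1273 with the replicate block, 703 with a random effect of the tumor, 161 with quality weights, 9 with edgeR, 575 with edgeR and the block, 698 with DESeq2 and 1733 with DESeq2 and the block. Leaving out 1 library or tumor gave between 0 and 86 without the block and, without tumors 1, 2 and 3 in turn, 1134, 851 and 2019 with it. The count was 0 without the CD34 negative library of tumor 3, without the CD34 positive library of tumor 2 and without tumor 2 or tumor 3. Of the receptors, 0 passed without the block, 4 with it, 3 with edgeR and the block, 3 with DESeq2 and 5 with DESeq2 and the block, and leaving out libraries or tumors gave 0 to 4. Partners passed 0 times without the block, 6 with it, 3 with the random effect, 1 with quality weights, 3 with edgeR and the block, 3 with DESeq2 and 9 with DESeq2 and the block (left out: 0 to 8, with 7 and 6 for the block without tumors 1 and 2). Of the G protein genes, 0, 2 with the block, 1 with the random effect, 0 with edgeR and the block, 1 with DESeq2 and 3 with DESeq2 and the block passed (left out: 0 to 2). The cause was not tested. RLE size factors, no low-count filter and genes with a symbol only moved none of these counts by over 1.5 times.

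Signs turned in receptors without a call. Adgrg6 ranged from -0.80 to 0.51 (0.02 without the positive library of tumor 1 and 0.15 without that of tumor 3), and Adgrl4 ran from -0.24 without the CD34 negative library of tumor 1 to 2.95. Without tumor 3 Adgra3 was -0.0018 (up to 0.243), and without tumor 2 with the block Adgrg1 was -0.0102. Adgra2 was 0.0379 with quality weights, ran from -0.26 to 0.0942 when libraries or tumors were left out, and with the block was 0.0771 without tumor 2 and 0.0566 without tumor 3. Adgre1 and Adgrl4, with 108 and 104 counts over all libraries, are limited by depth.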

Other observations

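The 3 Celsr genes encode adhesion receptors of the flamingo type, which act in planar cell polarity, and their symbols fall outside the Adgr pattern. Over the 6 libraries they held 215 (Celsr1), 832 (Celsr2) and 118 (Celsr3) counts. Celsr1 had 1.23, 1.24 and 0 CPM in the CD34 negative libraries of tumors 1, 2 and 3 and 1.30, 0.81 and 0 CPM in the CD34 positive libraries, so neither library of tumor 3 had a count. Celsr2 was higher in the negative library of each tumor, at 5.61, 3.43 and 1.90 against 3.71, 2.67 and 0.18 CPM. Celsr3 was at 0 in the negative library of tumor 3 and lay between 0.37 and 0.62 CPM in the others. None passed in limma-voom (adjusted p = 0.995, 0.592 and 0.593, and 0.874, 0.545 and 0.689 with the tumor block). The summed epithelial markers were also lowest in tumor 3 in both fractions, and the part of epithelial RNA in the Celsr values was not tested.

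The summed level of the 27 receptors was 128, 144 and 151 RPKM in the CD34 negative libraries and 122, 170 and 184 RPKM in the CD34 positive libraries of tumors 1, 2 and 3. The order of the fractions was not the same in each tumor.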
